A study of Mus musculus with 51 samples.

Results

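Ttr and Rbp4, the genes of the 2 plasma proteins that carry retinol out of the liver together, were followed in every RNA library of a mouse study of the FoxA factors. They were taken as 2 named rows of the 33773 rows of the deposited expression matrix, and their level was read per library in all 6 RNA groups. The rule names both genes and uses no measured value, although earlier results of these data were known when it was made.

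Hepatocytes load retinol onto retinol-binding protein, the product of Rbp4, and secrete the complex. In blood it is bound by transthyretin, the product of Ttr, which keeps the small complex from being filtered by the kidney and is also a carrier of thyroxine. The FoxA factors are forkhead proteins that open chromatin at liver genes, and the promoter and enhancer of Ttr were among the first places where FoxA binding was described.

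RNA was sequenced from hepatocytes (15 libraries) and from liver (6 libraries). The 4 FoxA triple null libraries came from mice with floxed FoxA1 and FoxA2 and no FoxA3 from birth. These mice were 8 weeks old when FoxA1 and FoxA2 were deleted by an AAV8 virus with Cre under the hepatocyte-specific Tbg promoter. The 4 FoxA3 null libraries are taken here as the controls of the same genotype that received a GFP virus, so both groups lacked FoxA3 and received AAV. The 3 FoxA1/A2 lox libraries carried floxed FoxA1 and FoxA2 without deletion and kept FoxA3. The 4 FoxA1/A2 Cre alfp libraries kept FoxA3 and lost FoxA1 and FoxA2 through an alfp Cre, a transgene driven by albumin and alpha-fetoprotein control regions that acts in the fetal liver. The route and age of FoxA1/A2 deletion therefore differed between both pairs of groups. The 2 HNF4a control and 4 HNF4a null libraries were liver tissue, the null group being described as depleted of HNF4a in adults, by a route the labels do not give. Nothing in the labels ties a replicate number to a separate animal, so all p-values measure the spread between these libraries, which may be technical.

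The targeted genes were read first. Foxa3 was at most 0.0114 RPKM (read density scaled to transcript length and library size) in the 8 libraries of the FoxA3 null and FoxA triple null groups, against 19.0 to 34.5 RPKM in the 7 that kept it. Foxa2 was 0.243 to 0.470 RPKM in FoxA triple null against 11.1 to 20.6 in FoxA3 null, and 0.991 to 1.26 in Cre alfp against 6.84 to 19.2 in lox. Foxa1 was 3.04 to 3.63 RPKM in FoxA triple null against 6.14 to 10.1 in FoxA3 null, so reads of the gene remained, and 1.14 to 1.34 in Cre alfp. Hnf4a went against its label: it was 487 to 545 RPKM in libraries labelled HNF4a null and 118 to 126 RPKM in HNF4a control. A gene-level RPKM also counts exons outside a deleted part, and the labels do not name the deleted exons, so this value does not check the deletion. The hepatocyte libraries with and without Foxa3 did not overlap in 1277 of 11500 genes tested, Ttr among them. A batch that follows FoxA3 genotype cannot be told apart from it. The comparisons within 1 FoxA3 genotype do not cross this line, and those across it are given last. Relative sequencing depth, read from the value of 1 read at low genes, was lowest in the liver libraries (1.00 to 1.11) and 2.01 to 4.10 in the hepatocyte libraries on the same scale, and the absolute depth is unknown.

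The start regions of Rbp4 are shown because the forkhead letters that FoxA factors are known to prefer can be looked for in them. RefSeq lists 2 start sites of Rbp4, on the minus strand of chromosome 19 in GRCm38.p6, and each sequence holds 250 bases before and 50 after the start, printed 5′ to 3′ on the gene's strand. The first, at chr19:38125272-38125571, has 1 match to the forkhead letters, in capitals, and the second, at chr19:38124762-38125061, has 1 TATA box, in capitals.
Rbp4 start 1: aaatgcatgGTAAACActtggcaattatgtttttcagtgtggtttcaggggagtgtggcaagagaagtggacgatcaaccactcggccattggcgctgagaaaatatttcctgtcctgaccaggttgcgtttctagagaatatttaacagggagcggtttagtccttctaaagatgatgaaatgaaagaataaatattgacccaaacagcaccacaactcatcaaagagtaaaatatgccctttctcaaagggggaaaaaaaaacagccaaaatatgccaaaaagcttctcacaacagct
Rbp4 start 2: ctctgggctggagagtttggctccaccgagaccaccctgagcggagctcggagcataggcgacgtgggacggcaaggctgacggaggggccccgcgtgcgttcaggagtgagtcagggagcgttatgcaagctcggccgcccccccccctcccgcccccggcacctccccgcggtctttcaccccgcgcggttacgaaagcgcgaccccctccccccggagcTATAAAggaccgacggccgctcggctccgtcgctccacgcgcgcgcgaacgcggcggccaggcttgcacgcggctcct
The capitals in the first sequence are TGTTTAC read on the reverse strand, bases 10 to 16 of the 300, beginning 241 bases before the start site. Forkhead letters were searched as TGTTTAC or TATTTAC on both strands, and 6.54% of 32851 promoters of the same length held them. The TATAAA of the second sequence lies at bases 223 to 228, beginning 28 bases before the start site, and 13.6% of promoters held these letters on the printed strand. The letters CAAAGTC for HNF4, held by 4.44% of promoters, and ATTGAT or ATCGAT for HNF6, held by 8.40%, had no match in either sequence. The expression files were made on the older build mm9, and a match of letters is a description of the sequence only. Ttr was not in the promoter table.

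Ttr was reduced to a few percent in FoxA triple null hepatocytes, and Rbp4 did not pass the test in the same libraries. Ttr was 3719, 4693, 5799 and 4858 RPKM in the 4 FoxA3 null libraries, a mean of 4767 ± 852 (SD). In the 4 FoxA triple null libraries it was 101.7, 70.9, 105.5 and 97.0 RPKM, a mean of 93.8 ± 15.6. The groups did not overlap, as for 27.9% of genes in this comparison, and the mean left was 1.97% ± 0.328 (SD, n = 4) of the FoxA3 null mean. Among protein-coding genes, Ttr held places 14 to 15 by RPKM in FoxA3 null and places 676 to 1024 in FoxA triple null. The log2 difference was -5.65 (SE 0.15, 95% interval -5.97 to -5.33) with an adjusted p of 3.52e-12 by limma across all 11500 genes. Only 9 of the 11500 genes tested had a lower difference in this comparison, in which 8.11% of genes were called either way (adjusted p under 0.05 and an absolute log2 difference of at least 1). In bulk RNA, fewer cells of a type and less RNA per cell cannot be told apart.

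Rbp4, the other carrier, was not called in the same libraries. It was 2969.6, 2863, 3674 and 3712 RPKM in FoxA3 null and 2750.1, 3127, 2933 and 3118 RPKM in FoxA triple null. The ranges overlapped, and the triple null mean was 90.2% ± 5.40 (SD, n = 4) of the FoxA3 null mean. The log2 difference of Rbp4 was -0.14 (SE 0.11, 95% interval -0.38 to 0.10, limma adjusted p 0.376). The test does not show that Rbp4 stayed the same; the ends of the interval bound the difference. By RPKM, Rbp4 ranked 17 to 21 among protein-coding genes in FoxA3 null and 16 to 25 in FoxA triple null.

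**Figure D1:**
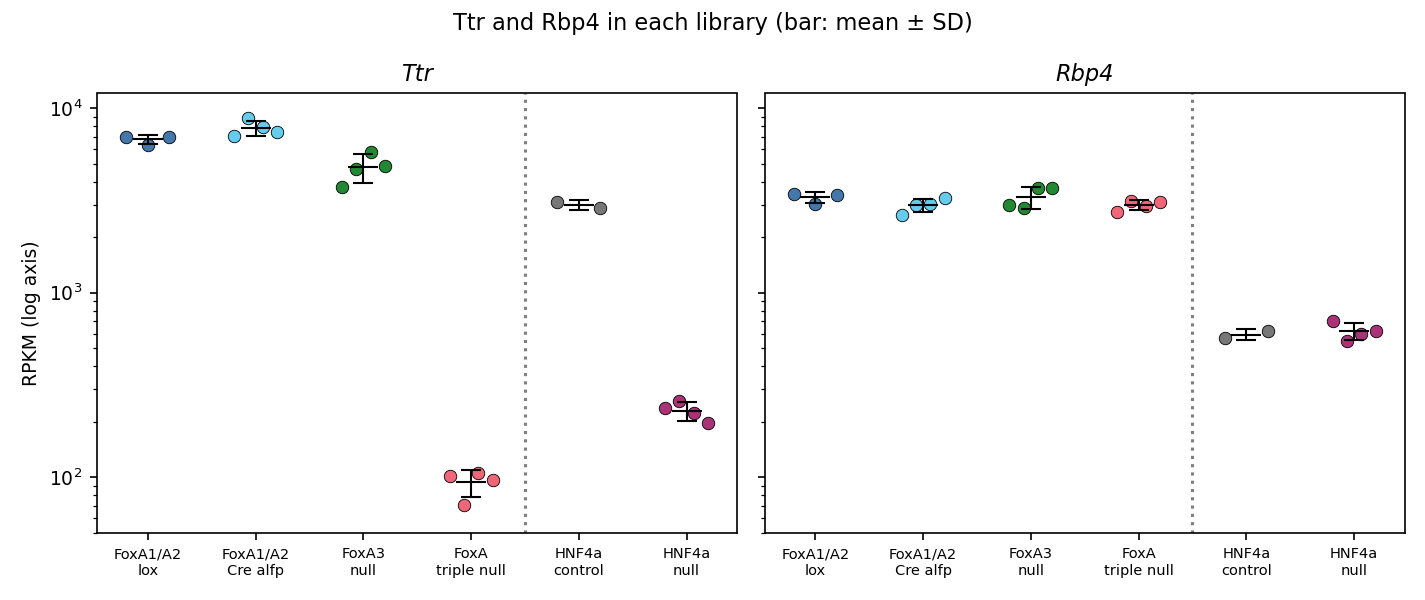
RPKM of Ttr (left) and Rbp4 (right) on a log axis, 1 point a library, in the 6 RNA groups; bars give the mean ± SD, and the dotted line separates hepatocyte from liver libraries. Ttr is at 70.9 to 105.5 RPKM in FoxA triple null and 196 to 260 in livers labelled HNF4a null, below every library of the other groups, while Rbp4 differs between hepatocytes and liver more than among the groups of either.

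Where FoxA3 remained, Ttr was high with and without FoxA1 and FoxA2. It was 6950.4, 6343 and 7000.0 RPKM in the 3 lox libraries (mean 6764 ± 366, SD) and 7079.6, 8786, 7886 and 7427 RPKM in the 4 Cre alfp libraries (mean 7795 ± 739, SD). Each Cre alfp library lay above each lox library, which was the case in either direction for 19.9% of genes in this comparison. The log2 difference of 0.20 (SE 0.16, 95% interval -0.14 to 0.55) did not pass the test (limma adjusted p 0.574), and 2.38% of genes were called. Rbp4 was 3445, 3033 and 3375 RPKM in lox and 2648, 2978, 3012 and 3273 RPKM in Cre alfp. These values overlapped, with a log2 difference of -0.14 (SE 0.12, 95% interval -0.40 to 0.12, limma adjusted p 0.604).

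Whether FoxA triple null departed further from FoxA3 null than Cre alfp did from lox was tested directly as an interaction. For Ttr it was -5.85 on the log2 scale (SE 0.22, 95% interval -6.32 to -5.38, limma adjusted p 5.19e-10), the fifth lowest of 11500 genes. The interaction was called for 6.82% of genes, lower for 3.54% and higher for 3.28%. For Rbp4 it was 0.00 (SE 0.17, 95% interval -0.35 to 0.36, limma adjusted p 0.992). The pairs of groups differ in the route and age of FoxA1/A2 deletion as well as in FoxA3, and these cannot be told apart.

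**Figure D2:**
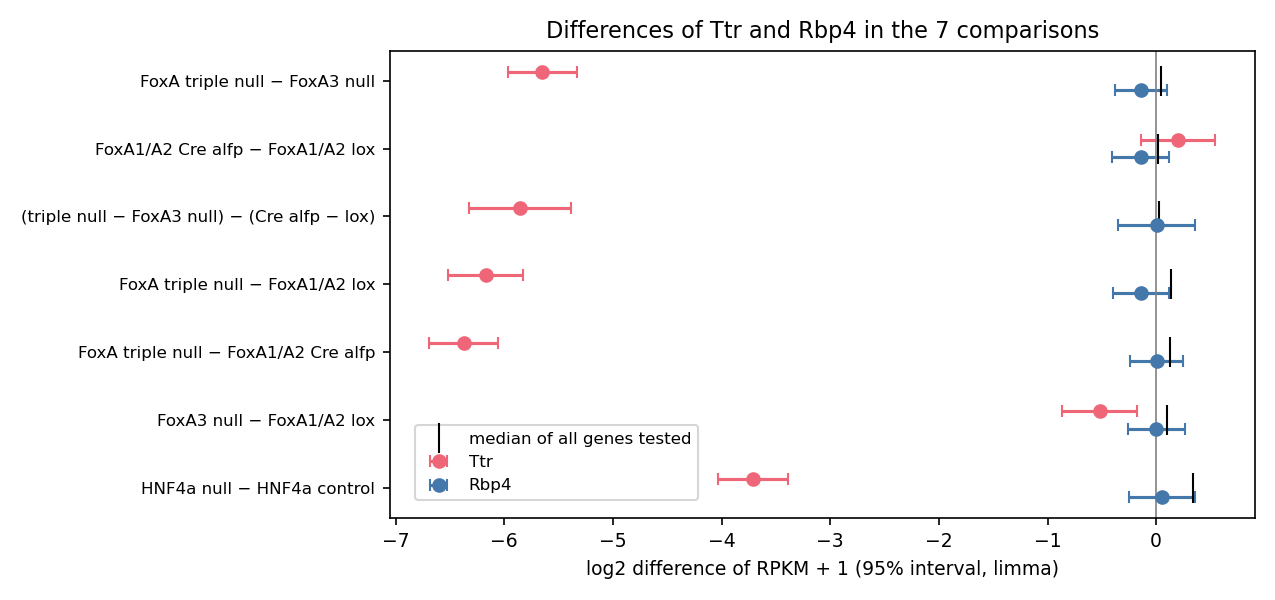
Log2 differences of Ttr and Rbp4 in the 7 comparisons, with 95% intervals from limma and the median of all genes tested as a black mark. Ttr lies between -6.37 and -5.65 in the 4 contrasts of FoxA triple null, interaction included, and at -3.71 in the liver comparison, while the intervals of Rbp4 include 0 in all 7.

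Set against each other within a library, the 2 carrier genes changed unequally. The ratio of Ttr to Rbp4 RPKM does not depend on the scaling of the library. It was 1.25, 1.64, 1.58 and 1.31 in the 4 FoxA3 null libraries and 0.0370, 0.0227, 0.0360 and 0.0311 in the 4 FoxA triple null libraries. So Ttr exceeded Rbp4 in every FoxA3 null library and was far below it in every FoxA triple null library. On the log2 scale the ratio differed by -5.53 (SE 0.19), 46.1-fold, with an exact two-sided permutation p of 0.0286, the smallest these group sizes allow, and 0.0429 after adjustment over 6 pairs of groups. In lox the ratio was 2.02, 2.09 and 2.07, and in Cre alfp 2.67, 2.95, 2.62 and 2.27. The latter were 1.27-fold higher on average, with an exact permutation p of 0.0571 (0.0667 adjusted) where 0.0286 was the smallest possible.

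**Figure D3:**
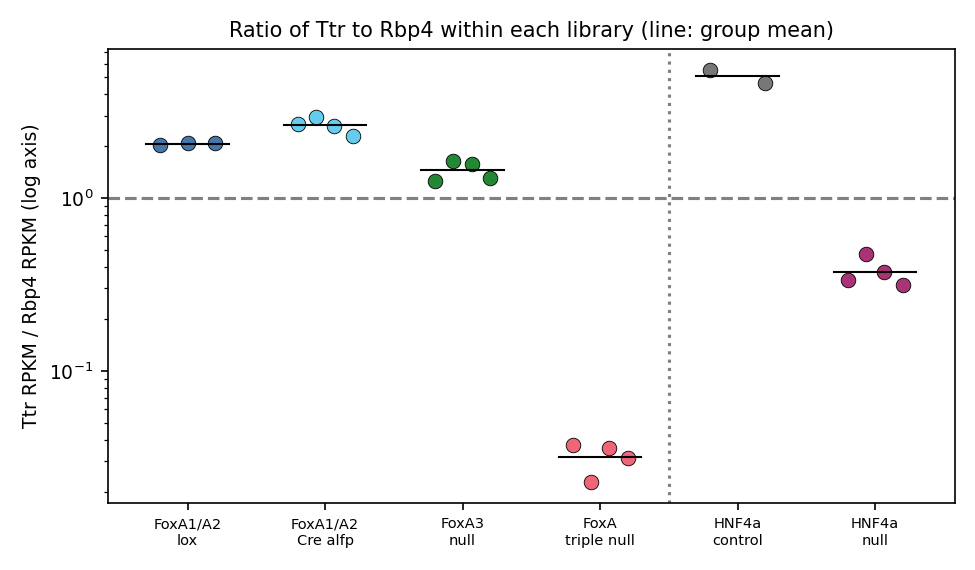
Ratio of Ttr to Rbp4 RPKM within each library on a log axis, 1 point a library and a line at the mean of each group; the dashed line marks equal RPKM. The group means are 2.06 in lox, 2.63 in Cre alfp, 1.44 in FoxA3 null, 0.0317 in FoxA triple null, 5.06 in HNF4a control and 0.374 in livers labelled HNF4a null.

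In liver, Ttr also fell in the libraries labelled HNF4a null. HNF4a is the nuclear receptor that, with the FoxA factors, keeps hepatocyte genes active. Ttr was 3113 and 2869 RPKM in the 2 HNF4a control libraries and 235.9, 259.6, 223.1 and 195.7 RPKM in the 4 labelled HNF4a null. No values overlapped, as for 67% of the 12434 genes tested in liver, and the mean left was 7.64% ± 0.891 (SD, n = 4) of the control mean. The log2 difference of Ttr was -3.71 (SE 0.13, 95% interval -4.03 to -3.39, limma adjusted p 5.40e-06) in a comparison with 14.5% of genes called. Of these calls 59.0% were higher as deposited, 31.0% with the libraries scaled by their median ratio and 39.4% after quantile normalization. The median gene was higher by 0.34 in these libraries, and relative to it Ttr differed by -4.05. Among protein-coding genes Ttr held places 13 to 14 in control livers and places 170 to 228 in those labelled null. Whether the fall of Ttr differs in size between the FoxA and HNF4a experiments was not tested, since tissue and controls differ.

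Rbp4 overlapped between the liver groups. It was 564 and 622 RPKM in HNF4a control and 706, 550.3, 595 and 622 RPKM in the 4 labelled HNF4a null. The log2 difference was 0.06 (SE 0.13, 95% interval -0.25 to 0.36, limma adjusted p 0.732), and relative to the median gene it was -0.28 (95% interval -0.59 to 0.03), so its sign depended on the scaling. The ratio of Ttr to Rbp4 was 5.51 and 4.61 in the 2 control libraries and 0.334, 0.472, 0.375 and 0.314 in the 4 libraries labelled null. This 13.7-fold lower ratio had an exact permutation p of 0.0667, the smallest that 2 against 4 libraries can give, so the design could not pass 0.05.

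Across the 6 groups, the mean level of Ttr was highest in Cre alfp, followed by lox, FoxA3 null, HNF4a control, the libraries labelled HNF4a null and FoxA triple null. Of the neighbours in this order within hepatocytes, Cre alfp and lox were not called apart by the test above. FoxA3 null was below lox by 0.52 on the log2 scale (SE 0.16, 95% interval of the difference -0.87 to -0.18). Its limma adjusted p was 0.0235, but the difference is under the minimum of 1, so it was not called, and after quantile normalization it was 0.02, with the opposite sign. The groups did not overlap, as for 40.1% of genes. In this comparison 7.19% of genes were called and 3.56% called lower; 50.5% of the calls were higher as deposited and 36.1% after median-ratio scaling. It crosses FoxA3 genotype. For Rbp4 the order of means was FoxA3 null (3305 ± 451 RPKM, SD), lox (3284 ± 220), FoxA triple null (2982 ± 179), Cre alfp (2978 ± 256), livers labelled HNF4a null (618 ± 65.5) and HNF4a control (593 ± 40.6). Rbp4 was not called in any of the 5 pairs of hepatocyte groups tested by limma, and its groups overlapped in each. The liver level of Rbp4 was lower than that in hepatocytes in every library, a contrast of tissues and protocols that was not tested.

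The comparisons of FoxA triple null across FoxA3 genotype gave Ttr differences of -6.17 against lox (SE 0.16, limma adjusted p 1.49e-12, 13.5% of genes called) and -6.37 against Cre alfp (SE 0.15, limma adjusted p 3.69e-13, 10.3% called). Ttr did not overlap in either, as for 46.3% and 39.6% of genes. Genes were called higher in 7.72% and lower in 5.81% against lox, and in 5.26% and 5.03% against Cre alfp. The share of calls that were higher was 57.1% as deposited and 44.7% after median-ratio scaling against lox, and 51.1% and 37.0% against Cre alfp. The median of all genes was itself shifted by 0.13 in both, and relative to it the differences were -6.30 and -6.50. For Rbp4 the same comparisons gave -0.14 (95% interval -0.40 to 0.12, limma adjusted p 0.378) and 0.00 (95% interval -0.24 to 0.25, limma adjusted p 0.979). Relative to the median gene, the difference of Rbp4 from lox was -0.27 (95% interval -0.53 to -0.01). The ratio of Ttr to Rbp4 was 66.2-fold below lox and 84.0-fold below Cre alfp, and 1.44-fold lower in FoxA3 null than in lox, each with an exact permutation p of 0.0286 (0.0429 adjusted).

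The authors' deposited tables of comparisons hold both genes. In the authors' deposited table of FoxA triple null against FoxA3 null, Ttr has a log2 fold change of -5.71 (adjusted p 3.15e-188) and Rbp4 of -0.21 (adjusted p 0.202). In the authors' deposited table of FoxA triple null against Cre alfp, the log2 fold changes are -6.57 for Ttr, with a p listed as 0, and -0.20 for Rbp4, with a p of 0.0400 that becomes 0.0735 when adjusted over the table. The authors' deposited table against controls without deletion, turned to the same direction, gives -6.37 for Ttr and -0.36 for Rbp4 (adjusted p 0.000480). In the authors' deposited table for HNF4a, Ttr is at -4.13 (adjusted p 4.77e-188) and Rbp4 at -0.35 (adjusted p 0.0114). The deposited values for Rbp4 thus lie lower than those from RPKM and pass an adjusted p of 0.05 in the tables against undeleted controls and for HNF4a, at less than 1 log2 unit.

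The authors' deposited tables also place both genes in development. In hepatoblasts, the fetal precursors of hepatocytes, both carriers were far below adult hepatocytes in the authors' deposited table: the log2 fold change was -5.39 for Ttr (adjusted p 2.64e-46) and -4.55 for Rbp4 (adjusted p 4.47e-87). In newborn hepatocytes the values against adults in the authors' deposited table were -0.31 for Ttr (adjusted p 0.0424) and -0.45 for Rbp4 (adjusted p 0.000357). Against hepatoblasts, FoxA triple null cells had Ttr at -0.98 (adjusted p 0.00127) and Rbp4 at 4.20 (adjusted p 3.46e-84) in the authors' deposited table. Triple null cells were thus below hepatoblasts in Ttr and above them in Rbp4.

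The genes that store, take up and activate retinol were read beside the carriers. Stra6l, the liver receptor for the carrier complex, was 30.0 to 39.2 RPKM in FoxA3 null and 34.2 to 47.6 RPKM in FoxA triple null (log2 difference 0.35, SE 0.19, limma adjusted p 0.188). Stra6, the receptor of other tissues, was at or near 0 in all 21 libraries, at most 0.00748 RPKM. Lrat, which esterifies retinol for storage and marks stellate cells, was at most 0.916 RPKM in all hepatocyte libraries and 3.66 to 5.27 RPKM in liver. Rdh10, Dhrs3, Rara and Rxra, which make or reduce retinal or read retinoic acid, were not called between FoxA3 null and FoxA triple null.

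Genes of retinol metabolism moved in both directions where Ttr fell. Of 54 retinoid genes listed besides the carriers, 39 had enough signal to be tested; 9 were called higher and 5 lower in FoxA triple null than in FoxA3 null, against 4.17% and 3.95% of all genes. Their median log2 difference was 0.30 beside 0.05 over all genes. Among those that fell, Adh4, an alcohol dehydrogenase that oxidises retinol, went from 169 ± 65.0 to 22.8 ± 8.10 RPKM (log2 difference -2.81, SE 0.27, limma adjusted p 2.79e-06). Rdh7, a retinol dehydrogenase (log2 difference -2.38), and Ces1d, a carboxylesterase that can release retinol from its esters (-2.19), fell too. Retsat, which saturates retinol, fell by 1.60 on the log2 scale, from 265 ± 23.5 to 90.2 ± 32.7 RPKM (SD, n = 4 each).

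Cyp26a1 and Aldh1a1 were among the genes that rose in the triple null, while the aldehyde dehydrogenase genes Aldh8a1 (0.12, limma adjusted p 0.403) and Aldh1a7 (-0.76, limma adjusted p 0.135) were not called. Cyp26a1, which degrades retinoic acid and is induced by it, was 7.32 to 14.3 RPKM in FoxA3 null and 20.8 to 113.8 RPKM in FoxA triple null, a log2 difference of 2.11 (SE 0.48, adjusted p 0.00446 by limma). Its level varied widely within the triple null group but did not overlap with FoxA3 null, as for 27.9% of genes in this comparison. It did overlap with lox (17.4 to 33.7 RPKM) and with Cre alfp (17.1 to 68.3 RPKM). The interaction was not called for Cyp26a1 (1.49, limma adjusted p 0.175). Aldh1a1, which makes retinoic acid from retinal, rose from 623 ± 90.7 to 1447 ± 406 RPKM (log2 difference 1.18, SE 0.23, limma adjusted p 0.00151). Lpl, a lipase of circulating lipoproteins, rose by 2.02, Rarres1, a retinoic acid responsive gene, by 1.93, and the dehydrogenases Rdh16 and Dhrs9 by 1.83 and 1.82 on the log2 scale. Dhrs9 was under the filter of 1 RPKM in every FoxA3 null library (0.371 to 0.621 RPKM). In this comparison its call therefore rests on the group where it is high. Rdh7, Rdh16 and the other Rdh genes of the same cluster are close copies, and the split of reads between them is uncertain.

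With FoxA3 present, 3 of these 39 retinoid genes were called between Cre alfp and lox. Lpl, Rarg and Fabp5 were higher in Cre alfp, by 2.24, 1.72 and 1.56, in a comparison with 1.29% of genes called higher and 1.1% lower. Lpl and Fabp5 lost the call without lox replicate 1 or without Cre alfp replicate 3, and Fabp5 also without lox replicate 3. Tested directly, the interaction was called higher for 3 and lower for 5 of the 39, against 3.28% and 3.54% of all genes. With 1 library left out, the interaction was called higher for 1 to 4 of them and lower for 3 to 5.

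Plasma carriers of other ligands were more often called lower than higher. Of 22 genes of secreted binding proteins, 21 were tested; 10 were called lower and 2 higher in FoxA triple null than in FoxA3 null, against 3.95% and 4.17% of all genes, with a median log2 difference of -0.95 beside 0.05 over all genes. Ambp, whose product includes the lipocalin alpha-1-microglobulin, a relative of the Rbp4 protein, fell from 2095 ± 181 to 122.5 ± 32.6 RPKM (log2 difference -4.12, SE 0.19, limma adjusted p 1.14e-09). The carriers of iron, haem and haemoglobin fell, with log2 differences of -2.34 for Trf, -2.30 for Hpx and -2.70 for Hp. Igfbp2 (-3.13), Sepp1, a selenium carrier (-2.61), and Apoh (-1.77) also fell. Lcn2, a lipocalin that binds bacterial iron carriers and is induced in inflammation, rose from 21.4 ± 12.7 to 742 ± 201 RPKM (log2 difference 5.21, SE 0.44, limma adjusted p 8.28e-07). Of 3 neutrophil and monocyte markers tested, S100a8 and S100a9 were called higher and Lyz2 was at -0.03 (limma adjusted p 0.958), and the sum of 5 such markers was 3.73 to 7.52 RPKM in FoxA3 null and 11.7 to 115.7 RPKM in FoxA triple null, with Ly6g at 0 in all 21 libraries. S100a9 was under the filter of 1 RPKM in every FoxA3 null library (0.114 to 0.451 RPKM), so its call here rests on the group where it is high. The part of these markers in the value of Lcn2 was not tested. With FoxA3 present, 2 of the 21 carriers tested were called lower and 0 higher in Cre alfp than in lox, against 1.1% and 1.29% of all genes. They were Hpx (-1.48, limma adjusted p 0.000297) and Hp (-1.78, limma adjusted p 0.0373). The call of Hp was lost in 6 of 7 fits with 1 library left out, that of Hpx in 0 of 7.

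The other carriers of thyroid hormone did not move as 1 group. Of 16 thyroid hormone genes, 13 were tested; 2 were called higher and 3 lower in FoxA triple null than in FoxA3 null, against 4.17% and 3.95% of all genes. Slco1a1, an organic anion transporter that takes up thyroid hormone, fell from 162 ± 49.1 to 1.41 ± 0.338 RPKM, by 6.04 on the log2 scale (SE 0.65, limma adjusted p 9.94e-06). Albumin (Alb) fell from 28111 ± 4827 to 12268 ± 2345 RPKM, and Me1, an enzyme gene induced by thyroid hormone, fell by 1.29 on the log2 scale. Me1 was also lower in Cre alfp than in lox, by 1.55 (limma adjusted p 0.00866). It was the only call of the 13 genes there, where 2.38% of all genes were called. Serpina7, thyroxine-binding globulin, was higher by 1.67 (limma adjusted p 0.0273), from 10.1 to 35.7 RPKM in FoxA3 null to 31.6 to 99.6 RPKM in FoxA triple null. This call was lost when any of 5 libraries was left out: FoxA3 null replicate 1, 2 or 3, or FoxA triple null replicate 2 or 3, with adjusted p up to 0.0864. Slco1b2 was higher by 1.05 and fell under the minimum difference, to 0.96 at the lowest, without FoxA3 null replicate 2 or 4 or FoxA triple null replicate 3 or 4. Alb and Serpina7 stand in both the carrier and the thyroid list.

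Of 20 regulators of hepatocyte genes, 19 were tested; 3 were called lower and 1 higher in FoxA triple null than in FoxA3 null, against 3.95% and 4.17% of all genes, and 2 of the 3 are the deleted genes themselves. Foxa2 (-3.39) and Foxa1 (-1.13) fell, and Nr5a2 was 8.96 ± 3.26 RPKM in FoxA3 null and 3.88 ± 1.11 RPKM in FoxA triple null. The call of Nr5a2 was lost without FoxA3 null replicate 1 or FoxA triple null replicate 1, 2 or 4, where it was at -0.80 at the weakest. Hnf4a was 117 to 205 RPKM in FoxA3 null and 116 to 195 RPKM in FoxA triple null.

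**Figure D4:**
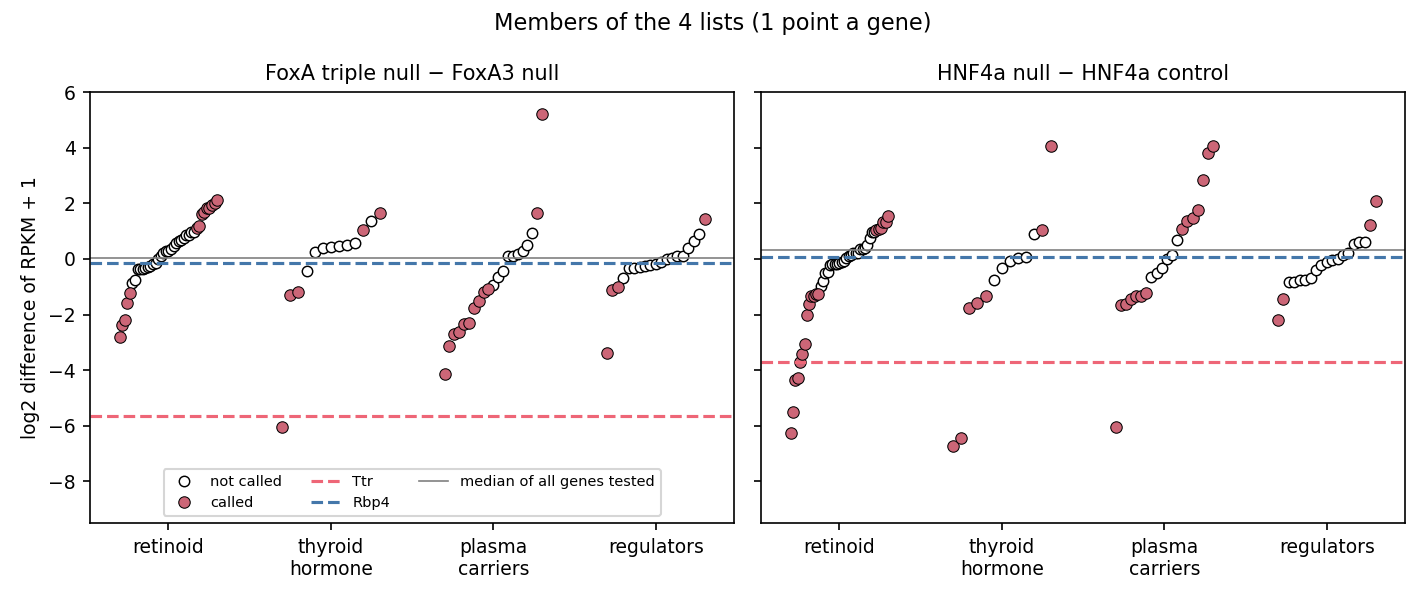
Log2 differences of the tested members of the 4 lists, 1 point a gene, in FoxA triple null against FoxA3 null (left) and in the libraries labelled HNF4a null against HNF4a control (right). Filled points were called; dashed lines mark Ttr and Rbp4 and the grey line the median of all genes tested. At -5.65 on the left Ttr lies below every listed gene but Slco1a1.

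In the liver comparison, retinoid genes were more often lower. Of 43 tested, 13 were called lower and 6 higher in livers labelled HNF4a null, against 5.95% and 8.58% of all genes. With the libraries scaled by their median ratio, 15 were called lower and 1 higher, and after quantile normalization 15 and 3, so the number of higher calls depended on the scaling. Aldh8a1, a retinal dehydrogenase, fell from 153 ± 5.11 RPKM (SD, n = 2) to 1.08 ± 0.633 RPKM (SD, n = 4), a log2 difference of -6.26 (SE 0.24, adjusted p 7.47e-06 by limma). The retinol-oxidising enzymes Rdh16 (-5.49), Rdh9 (-4.36), Adh4 (-4.29) and Rdh7 (-3.70) fell, as did Rarres1 (-3.41), Rarres2 (-3.05) and Rdh11 (-2.03), all as log2 differences. Rdh16 and Rarres1 were thus lower here and higher in FoxA triple null. Rdh16 met the filter of 1 RPKM in 2 liver libraries through the 2 control libraries alone. It could not be tested without either control, so its call here rests on the group where it is high. Aldh1a1 (-1.34) fell here and rose in FoxA triple null. Cyp26a1 was higher by 1.11 (limma adjusted p 0.0126), a call lost without HNF4a control library ACTGATA (0.79, adjusted p 0.0887).

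Other carriers split evenly in liver, with 7 called higher and 7 lower of 20 tested, against 8.58% and 5.95% of all genes. The counts were 4 and 7 with the libraries scaled by their median ratio and 7 and 7 after quantile normalization. With 1 library left out, 4 to 7 carriers were called higher and 7 to 8 lower. Apom, a lipocalin of lipoproteins, fell from 405 ± 3.48 to 5.63 ± 3.16 RPKM, by 6.05 on the log2 scale (SE 0.38, limma adjusted p 5.78e-05). Serpina7, which carries thyroxine as transthyretin does, rose from 23.1 ± 3.04 to 402 ± 65.6 RPKM (log2 difference 4.05, SE 0.17, limma adjusted p 9.95e-06). Igfbp2 and Ambp rose by 3.79 and 1.49, opposite in direction to FoxA triple null, and Trf (-1.63) and Apoh (-1.67) fell. Lcn2 and Lrg1, at 2.82 and 1.77, lost their calls without either control library (limma adjusted p up to 0.148), and Lrg1 also without the null library TAGCTTA. Beside them, 2 of 4 neutrophil and monocyte markers tested were called higher, the sum of all 5 being 28.3 to 28.5 RPKM in control and 36.4 to 59.0 RPKM in those labelled null, and their part was not tested. Without a control library, 1 control remains, which is assumed to vary like the null group, so a call lost this way is in part set by the design. Of 13 thyroid hormone genes, 5 were called lower and 2 higher, against 5.95% and 8.58% of all genes. The counts were 6 and 1 after median-ratio scaling and 5 and 1 after quantile normalization. With 1 library left out, 3 to 5 of these genes were called lower and 1 to 3 higher. Dio1, the main deiodinase of liver (-6.72), and Slco1a1 (-6.44) fell. Crym, which binds thyroid hormone inside cells (-1.75), Slco1b2 (-1.58) and Alb (-1.33) fell as well. Dio1 and Crym met the filter of 1 RPKM in 2 liver libraries through the 2 control libraries alone. They could not be tested without either control, so their calls rest on the group where they are high. Slc16a10, a thyroid hormone transporter, was higher by 1.03. It came under the minimum difference, to 0.95 at the lowest, without null library GGCTAC or GAGTGGA or control library ATTCCTA. Of 19 regulators, 2 were called lower and 2 higher as deposited, against 5.95% and 8.58% of all genes, but 7 lower and 1 higher after median-ratio scaling and 4 lower and 1 higher after quantile normalization. Ppara (-2.18) and Cebpa (-1.43) fell and Hnf4a was higher by 2.09.

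Cholangiocyte markers moved with the liver comparison: the sum of 8 markers was 15.8 to 16.8 RPKM in HNF4a control and 130 to 228 RPKM in livers labelled HNF4a null, 5 of 6 tested markers being called higher, against 8.58% of all genes. The sum of 10 hepatocyte markers was 8259 to 9653 RPKM in control and 6110.3 to 7549 RPKM in those labelled null; 5 of the 10 were called lower and 2 higher, against 5.95% and 8.58% of all genes, with a median log2 difference of -1.07 beside 0.34 over all genes. Their part in the fall of Ttr was not tested. In hepatocytes, the sum of 10 sinusoidal endothelium markers was 25.3 to 41.1 RPKM in FoxA3 null and 9.70 to 16.1 in FoxA triple null, and the sum of 12 stellate markers 27.7 to 35.8 and 9.60 to 25.1 RPKM. The hepatocyte marker sum was 11861 to 15104 RPKM in FoxA3 null and 13719 to 16079 RPKM in FoxA triple null, while 4 of the 10 were called lower, against 3.95% of all genes, and the median log2 difference was -0.53 beside 0.05 over all genes. All 3 erythroid markers tested were called in this comparison, 2 higher and 1 lower, against 4.17% and 3.95% of all genes. Hba-a1 was 0.790 RPKM on average in FoxA3 null and 5.72 in FoxA triple null, Hbb-b1 1.24 and 6.17, and Alas2 38.9 and 1.04. The part of these markers in the fall of Ttr was not tested.

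Of the 5 genes whose levels followed Ttr most closely over the 21 libraries, 4 encode secreted liver proteins. By Pearson r on log2(RPKM + 1) among 10774 genes tested in both tissues, they were Vtn (vitronectin, r = 0.987), Csrp3 (a muscle LIM protein, 0.975), Serpina1c (an alpha-1-antitrypsin, 0.972), Spp2 (secreted phosphoprotein 24, 0.971) and Trf (transferrin, 0.966). Csrp3 is the one that is not secreted. Vtn fell from 2192 ± 628 to 15.1 ± 2.23 RPKM between FoxA3 null and FoxA triple null. Unlike Ttr, Csrp3 was called higher in Cre alfp than in lox, by 1.32 (limma adjusted p 0.00123). Serpina1c belongs to a family of near-identical genes whose reads may be split between copies. Rbp4 came at place 1599 for Ttr, with r = 0.349.

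The genes most like Rbp4 were Uqcrq, a subunit of respiratory complex III (r = 0.991), Camk2n1, an inhibitor of a calcium-dependent kinase (0.989), Atp5d, a subunit of ATP synthase (0.989), Rnasek (0.989) and Eif1, a translation initiation factor (0.987). None of these 5 was called in any of the 6 pairs of groups. Their likeness to Rbp4 lies in the contrast of hepatocyte with liver libraries: Uqcrq was 1632 to 2117 RPKM as a mean of the hepatocyte groups and 78.7 and 101 RPKM in the 2 liver groups. Libraries within each set share tissue, protocol and depth, so these r values describe 21 points that are not independent. Ttr came at place 4308 for Rbp4.

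The few neighbours of Ttr that could be tested were not called between FoxA triple null and FoxA3 null, where 8.11% of all genes were called. Of the 3 nearest protein-coding genes on each side of Ttr in RefSeq order, Dsg2, a desmosome cadherin, was lower by 0.84 in FoxA triple null than in FoxA3 null (SE 0.20, limma adjusted p 0.00649), under the minimum difference. Trappc8 and Rnf125 were at -0.24 and -0.13 (limma adjusted p 0.186 and 0.849). Dsg3 and Dsg4 were near 0 in all libraries. B4galt6 had too few hepatocyte libraries at 1 RPKM to be tested there. Its highest value was 2.34 RPKM in FoxA triple null and 0.174 RPKM in the other hepatocyte groups. In liver, Rnf125 was called lower by 1.27 (limma adjusted p 0.000929), where 14.5% of genes were called. Dsg2 was higher there by 0.80 (limma adjusted p 0.00182), under the minimum difference. Of the 6 nearest genes of Rbp4, Myof, Cep55, Pde6c and Lgi1 were at most 1.35 RPKM in all libraries and Ffar4 and Fra10ac1 were not matched in the matrix.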

How the data were processed

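RNA was measured in 21 libraries of 6 groups. The authors deposited 1 matrix of RPKM values per gene, with Cufflinks 2.2.1 and SAMtools named in the submitters' processing notes together with build mm9; strand and depth are not given in the sources used here. Of its 30 library columns, 9 belong to samples not analysed here. The 7 tables of comparisons hold log2 fold changes and p-values, and in most a standard error, that the authors deposited, DESeq2 being named per the submitters' processing notes. One of the tables has no adjusted p-value as deposited, so its p-values were adjusted by the Benjamini-Hochberg method over that table.

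From the RPKM matrix, log2(RPKM + 1) was fitted with limma 3.58.1 in R 4.3.3, over the 4 hepatocyte groups together and over both liver groups separately, without a replicate block. Differences are on this log2 scale, which understates changes of low genes. Genes with at least 1 RPKM in 3 hepatocyte or 2 liver libraries were tested (11500 and 12434), p-values were adjusted by Benjamini-Hochberg over all of them, and a gene was called at an adjusted p under 0.05 and a difference of at least 1. Ratios were tested by exact permutation over libraries (scipy 1.17.1, Python 3.11.15). Places by RPKM are among 18337 protein-coding symbols. The fit was tested on simulated data. Close paralogs, such as those of Serpina1c, Rdh7, Aldh1a1, Ces1d and Slco1a1, may share reads. HNF4a peaks were not used here, and a few genes that stay in the counts of their lists are not reported here by name.

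Ttr, Rbp4 and the gene lists were chosen with earlier results of these data known. Of each list, up to 8 called genes with the largest differences were named by rule, in addition to a set of retinoid genes named for their role. Lpl, Rarg and Fabp5 in Cre alfp against lox, and genes of marker lists, were named after their values were seen. The 5 genes most like each carrier were named by Pearson r. Alternatives were the pseudocount, the filter, the scaling, the minimum difference, the groups fitted, a replicate block and leaving out each library.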

Additional observations from a re-analysis of the deposited data

Results flagged for a closer look

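Single libraries stood apart in 11 of 156 groups of 4 values checked, over Ttr, Rbp4, their ratio and the other genes named by the rule for lists (38 genes in all), where chance alone gives about 1 in 20. Neither Ttr nor Rbp4 was among them. The highest value lay far from the others of its group for Apom in Cre alfp replicate 4 (313.5 RPKM), Serpina7 in the same library (15.2 RPKM) and Rarres1 in the same library (153.5 RPKM). In FoxA triple null replicate 3 this was so for Rarres1 (120.4 RPKM) and Cebpa (361 RPKM). In FoxA3 null it was so for Foxa2 in replicate 3 (20.6 RPKM) and Nr5a2 in replicate 1 (13.8 RPKM). Among livers labelled HNF4a null, Aldh8a1 (2.02 RPKM) and Trf (1839 RPKM) were high in library TAGCTTA. Lcn2 was high (84.0 RPKM) and Slco1a1 low (0.766 RPKM) in library GGCTAC.

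The difference of FoxA triple null from FoxA3 null and that of Cre alfp from lox were unequal by the interaction test for 15 of these 38 genes (limma, adjusted over all genes). Many of the 38 were named for a large difference between FoxA triple null and FoxA3 null, which is one arm of this test, so their number is not to be read against the 6.82% of all genes called. The route and age of deletion differ between these pairs as well as FoxA3, and cannot be told apart from it. Ttr had the lowest of these differences between effects, at -5.85 on the log2 scale (adjusted p 5.19e-10), while Cre alfp against lox did not pass for Ttr (0.20, adjusted p 0.574). Other plasma carriers with a negative interaction were Ambp (-3.85), Igfbp2 (-3.48), Sepp1 (-2.59), Trf (-2.02) and Apoh (-1.60). Lcn2 (4.47) and Serpina7 (2.82) had a positive one. Slco1a1, the organic anion transporter, was at -5.35. Among retinoid enzymes, Ces1d (-2.71), Rdh7 (-2.57) and Adh4 (-2.34) were negative, and Dhrs9 (1.14) and Rdh16 (1.04) positive. Dhrs9 was under 1 RPKM in every FoxA3 null library (at most 0.621 RPKM) and every lox library (at most 0.669 RPKM). Aldh1a1 (1.50, adjusted p 0.00948) and Retsat (-1.03, adjusted p 0.0370), named in the report by their role, were called too. Of the regulators, Nr5a2 was at -1.07. With 1 library left out, the call was lost in 7 of 15 cases for Dhrs9, 9 for Rdh16, 10 for Retsat, 5 for Serpina7 and 2 for Nr5a2.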

How the results depend on the processing

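With 1 library left out, Ttr kept its direction and its side of the threshold in all 58 fits: -5.76 to -5.52 for FoxA triple null against FoxA3 null and -3.77 to -3.64 in liver. In 67 fits with another setting it did so in 65. The exceptions concern FoxA3 null against lox, which was 0.016 after quantile normalization, and -0.52 and called without a minimum difference.

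Rbp4 was not called under any setting. For FoxA triple null against FoxA3 null it stayed negative, at -0.21 to -0.08 with 1 library left out and -0.19 to -0.14 under other settings. In each of the other comparisons its sign was not fixed. Median scaling gave -0.034 for the interaction, -0.16 for FoxA triple null against Cre alfp, -0.13 for FoxA3 null against lox and -0.35 in liver. Quantile normalization gave 0.043 for Cre alfp against lox, -0.24 for the interaction, 0.31 for FoxA triple null against lox, 0.27 for FoxA triple null against Cre alfp and 0.51 for FoxA3 null against lox, its largest move. With 1 library left out, Rbp4 ranged from -0.062 to 0.063 (interaction), -0.051 to 0.051 (FoxA triple null against Cre alfp), -0.058 to 0.067 (FoxA3 null against lox) and -0.014 to 0.13 (liver).

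The log2 ratio of Ttr to Rbp4 ranged from -6.13 to -5.90 for FoxA triple null against lox and from -0.59 to -0.46 for FoxA3 null against lox with 1 library left out; 14 of 43 such tests no longer passed, with fewer libraries to permute. Calls numbered 933 for FoxA triple null against FoxA3 null, 505 with a pseudocount of 5 and 3413 without a minimum difference. In the same order they numbered 274, 141 and 628 for Cre alfp against lox, 784, 441 and 1658 for the interaction, 1556, 823 and 4891 for FoxA triple null against lox, 1184, 598 and 4743 against Cre alfp, 827, 354 and 4001 for FoxA3 null against lox, and 1807, 791 and 6569 in liver. FoxA3 null against lox gave 1303 with a pseudocount of 0.1. Cre alfp against lox gave 182 when only these groups were fitted and 177 to 284 with 1 library left out, 177 being without lox replicate 1.

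Deviations of same-numbered libraries from their group means correlated at -0.36 to 0.17 over 21 pairs, 3 of them over 0.1. Libraries with different numbers were not compared, so these values cannot decide whether replicate numbers pair the samples. A replicate block gave -0.042 for Rbp4 in FoxA3 null against lox and changed no call of Ttr or Rbp4; the number of genes called went from 933 to 919 for FoxA triple null against FoxA3 null and from 274 to 229 for Cre alfp against lox. Liver library names carry no shared number, so no block was fitted there. Depth was lowest in liver, where 2 control libraries limit every comparison.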
